A study of Mus musculus with 31 samples.

Results

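The genes described here encode the sulfotransferases that edit heparan sulfate, chondroitin sulfate and related glycans, and the GalNAc transferases that start mucin-type sugar chains on proteins. They were taken as every gene of the deposited normalized table whose symbol begins with Hs2st, Hs3st, Hs6st, Ndst, Chst or Galnt followed by a digit, which gave 45 of its 20784 genes, out of 55421 mouse genes counted. Of the 45, 44 are enzyme genes and 1, Galnt6os, is an antisense RNA of Galnt6. They were read in 31 single neurons of the mouse brainstem, 18 lateral olivocochlear (LOC) cells from the lateral superior olive and 13 medial olivocochlear (MOC) cells from the ventral nucleus of the trapezoid body. These are the cholinergic neurons that project from the brainstem to the cochlea. The cells of both groups came from ChAT-IRES-Cre; tdTomato transgenic mice, in which a Cre recombinase expressed from the choline acetyltransferase gene turns on a red protein, while the sample labels give the genotype as wild-type. The sources used here do not give the age or number of the mice. Each red neuron was recorded by patch clamp in an acute slice, its cytoplasm was aspirated, and 1 Smart-seq2 library was made per cell.

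Heparan sulfate and chondroitin sulfate are long sugar chains carried by proteins of the cell surface and the extracellular matrix. Heparan sulfate is built on a linker sugar, after which the Ndst enzymes replace acetyl with sulfate on its glucosamines and the Hs2st, Hs6st and Hs3st enzymes add further sulfates at set positions. Which sulfates a chain carries sets which growth factors, guidance cues and synaptic proteins can bind to it. The Chst genes encode enzymes that sulfate chondroitin and dermatan chains, keratan sulfate and the ends of other glycans. The Galnt enzymes transfer the first N-acetylgalactosamine to serine or threonine of a protein.

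All values are described and none was tested, because the labels name no animal and each group therefore counts as 1 sample; an SD is the spread between cells of 1 group. Library totals ran from 356412 to 1404896 counts in LOC cells and from 598028 to 2627174 in MOC cells. Levels are counts per 1000000 (CPM) of the counts of a group summed over its cells, with an exact 95% Poisson interval that covers counting error only. Differences are LOC minus MOC of the mean log2(CPM + 1) over cells. A gene is called measured where at least 25% of the cells of 1 group held a read. The size rule asked 3 things of the higher group, namely a summed CPM of 2 or more times the lower one, a mean log2(CPM + 1) that exceeded the lower one by 1 or more, and a read in 25% or more of its cells.

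The libraries held reads of marker genes of other cells, and some libraries stood apart from their labels. How these reads entered the libraries was not tested. Mbp, a marker of oligodendrocytes, was read in every library. The oligodendrocyte marker list took a median of 3.19% of the counts in LOC cells (0.002 to 23.8%) and 4.36% in MOC cells (0.036 to 12.3%). The 3 genes that define cholinergic neurons (Chat, Slc18a3 and Slc5a7) had fewer than 10 reads together in 4 LOC and 5 MOC libraries. A pair of LOC libraries and MOC8 had 0 cholinergic reads, and MOC8 had the most microglia marker counts of all libraries, and 4334 reads of the inhibitory neuron list (Gad1, Gad2, Slc6a5 and Slc32a1). The microglia list ran from 25.8 to 1767 CPM in LOC cells and from 40.7 to 5023 CPM in MOC cells, and the inhibitory list from 0 to 949 CPM and from 10.1 to 2990 CPM. The part of these other transcripts in the results was not tested. Results are also given for the 14 LOC and 8 MOC libraries with at least 10 cholinergic reads.

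Hs3st5 and Galnt9 were the pair of enzyme genes with the widest difference between the groups, and both were higher in MOC cells. Hs3st5 encodes a heparan sulfate 3-O-sulfotransferase, an enzyme of the last and rarest step of chain editing. Galnt9 encodes a GalNAc transferase known for its expression in brain. The sequence just before the start of each is shown because this pair differed in the same direction. The windows are the 250 bases upstream of the RefSeq start on the plus strand of GRCm38.p6, written 5′ to 3′, at chr10:36506557-36506806 for Hs3st5 and at chr5:110544105-110544354 for Galnt9. Capitals mark the GC box GGGCGG, read on either strand.
Hs3st5: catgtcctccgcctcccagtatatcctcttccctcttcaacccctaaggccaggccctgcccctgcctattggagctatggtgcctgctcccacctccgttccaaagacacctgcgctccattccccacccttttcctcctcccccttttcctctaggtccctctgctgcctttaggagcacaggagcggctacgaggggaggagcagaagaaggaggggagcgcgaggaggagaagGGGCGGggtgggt
Galnt9: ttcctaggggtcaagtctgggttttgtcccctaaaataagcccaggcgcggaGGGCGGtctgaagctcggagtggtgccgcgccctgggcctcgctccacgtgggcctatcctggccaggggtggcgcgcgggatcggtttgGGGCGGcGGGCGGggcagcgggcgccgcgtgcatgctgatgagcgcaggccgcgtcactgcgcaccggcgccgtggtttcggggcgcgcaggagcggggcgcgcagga
The Hs3st5 window held 1 GC box and 8 CpG sites at 62% GC, and the Galnt9 window held 3 GC boxes and 32 CpG sites at 72.4% GC. Over the 32851 RefSeq promoter windows of this length the median was 52.4% GC and 6 CpG sites, and 32.7% of windows held GGGCGG on a strand. Neither window held TATAAA, TGACGTCA or AGATAA on a strand, motifs present in 12.4%, 1.55% and 9.99% of all windows. RefSeq lists a further Galnt9 start inside the gene, at 50% GC with 2 CpG sites, so that the reads of the gene cannot be assigned to 1 promoter. A match is a description of letters and no evidence of binding.

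Of the 45 genes, 41 were measured; Chst4, Chst9, Galnt5 and Galnt6os were not. Of the 41, Chst8 and Ndst2 (2 genes) passed the size rule on the LOC side and Hs3st5, Galnt9 and Galnt10 (3 genes) on the MOC side. These are 4.88% and 7.32% of the measured genes, against 6.07% (LOC) and 5.67% (MOC) of all 17754 measured genes, so that the share of these enzymes was near the background. The median difference of the 41 was 0.125, with 22 above 0 and 19 below, against -0.07 over all measured genes. For none of the 41 did the groups separate completely. A further 16 genes differed by at least 2-fold in summed counts without reaching a mean difference of 1. In 26 of the 41, 1 cell held over 50% of the counts of a group. The shares of all measured genes with these traits are not given here, so these counts are not read as particular to these enzymes.

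**Figure D1:**
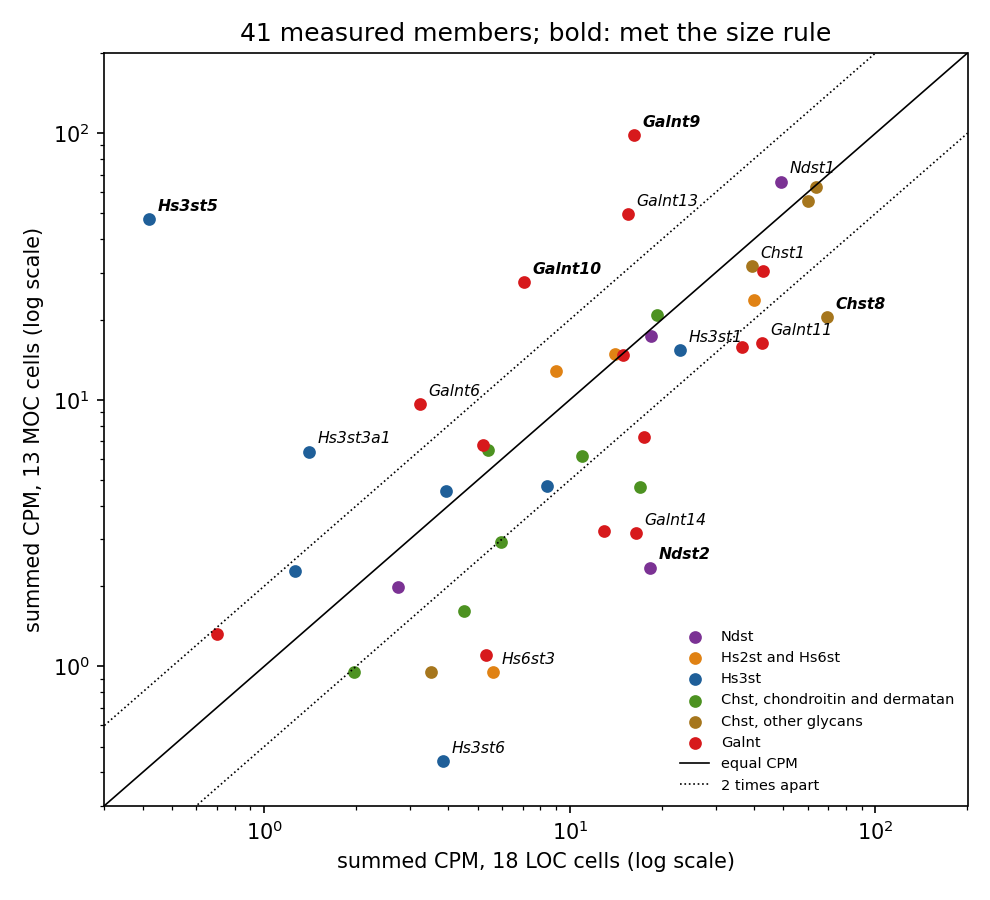
Summed CPM of the 41 measured enzyme genes in LOC cells (horizontal axis, log scale) against MOC cells (vertical axis, log scale), 1 point per gene. Hs3st5, at 0.42 CPM for LOC against 47.5 CPM for MOC, lies farthest from the diagonal.

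The N-deacetylase/N-sulfotransferases open the editing of heparan sulfate. Ndst1, the widely expressed member, led the family per length of exon in both groups. It was read in 17 of 18 LOC and 11 of 13 MOC cells, with a lowest, median and highest value of 0, 42.0 and 210 CPM in LOC and 0, 8.03 and 448 CPM in MOC. Its direction depended on the measure, since the summed level was lower in LOC (49.1 against 65.9 CPM) and the mean log2 value was higher there (4.76 ± 2.03, SD, n = 18, against 3.62 ± 2.78, SD, n = 13). The cell MOC7 held 50% of the MOC counts of Ndst1.

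Ndst2, the other broadly expressed enzyme of this step, met the size rule in LOC. Its level was 18.3 CPM (16.2 to 20.7) over LOC cells against 2.35 CPM (1.61 to 3.31) over MOC cells, with a difference of 1.22 on the log2 scale. The lowest, median and highest cells were at 0, 5.03 and 196 CPM in LOC and at 0, 0.76 and 17.1 CPM in MOC. The groups overlapped, and 1 cell, LOC8, held 58.6% of the LOC counts. Without LOC8 the LOC level was 8.01 CPM, the difference 0.92, and the size rule was not met, while without MOC12 the ratio of LOC to MOC moved from 7.80 to 13.03. Among libraries with at least 10 cholinergic reads the difference was 1.98 (21.1 against 1.21 CPM), and in the 4 LOC and 4 MOC cells with the lowest oligodendrocyte marker share it was -0.21. With a pseudocount of 10 it was 0.59 and the call was lost. Per length, Ndst2 made up 33.4% of the family in LOC and 4.97% in MOC, while Ndst1 made up 49.2% and 76.5%. Ndst3 and Ndst4, the members known from the nervous system, were at 18.4 and 2.74 CPM over LOC cells, against 17.3 and 1.98 CPM over MOC cells. The 4 genes had a difference above 0 in every case on cell means, whereas 3 of 4 did on summed counts and in the subset low in oligodendrocyte markers, and 2 of 4 with every library thinned to 350000 counts.

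The 2-O and 6-O sulfotransferases act next on the same chain. Hs2st1, the single gene of its kind, was read in 16 of 18 LOC and 10 of 13 MOC cells at 40.0 CPM (36.8 to 43.4) and 23.8 CPM (21.2 to 26.5). Its lowest, median and highest cells were at 0, 10.7 and 267 CPM in LOC and 0, 10.04 and 77.7 CPM in MOC, so that the cells of the groups covered a like range up to a few high LOC cells. The mean log2 values were 3.72 ± 2.42 (SD, n = 18) and 3.36 ± 2.45 (SD, n = 13). Of the 6-O sulfotransferases, Hs6st1 had a difference of -1.22 but a summed ratio under 2, and without LOC12 it met the size rule in MOC (5.38 against 12.8 CPM). Hs6st2 had 14.1 and 14.8 CPM, and without LOC3 it too met the rule in MOC (4.89 against 14.8 CPM). Hs6st3 had 5.61 and 0.95 CPM with a difference of 0.73. An exon of Hs6st1 overlaps Gm37335 on the opposite strand, and the library kit keeps no strand.

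The 3-O sulfotransferases make rare sulfate groups, which in known cases create binding sites for single proteins such as antithrombin. Hs3st5 (ENSMUSG00000044499, GRCm38 chromosome 10, 36506814 to 36834397, plus strand) had no exon shared with another gene. It held 6 counts in all 18 LOC cells, with 1, 2 and 3 reads in LOC1, LOC6 and LOC10, and 648 counts in the 13 MOC cells. In MOC the values were 280 CPM in MOC2, 142 in MOC5, 113 in MOC8, 86.0 in MOC10, 59.5 in MOC9, 6.37 in MOC11, 1.52 in MOC7 and 1.22 in MOC12, with no read in the remaining 5. In all, 6 MOC cells lay above the highest LOC cell at 4.71 CPM, and the other 7 lay within the LOC range. The summed level was 0.42 CPM (0.15 to 0.92) for LOC against 47.5 CPM (43.9 to 51.3) for MOC, a ratio of 113. The mean log2 value was 0.31 ± 0.76 (SD, n = 18) in LOC and 3.07 ± 3.29 (SD, n = 13) in MOC, a difference of -2.75.

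The gap in Hs3st5 also showed in the number of cells. A read was found in 3 of 18 LOC cells (16.7%, exact Clopper-Pearson 95% interval 3.58 to 41.4%) and 8 of 13 MOC cells (61.5%, 31.6 to 86.1%), and 5 or more reads in 0 of 18 and 6 of 13. This interval takes cells as independent draws and does not cover the spread between animals. With every library thinned to 350000 counts, 2 of 18 and 7 of 13 cells held a read. The ratio rested on few LOC counts and moved to 216 without LOC10 and 74.0 without MOC2, the cell with 38.7% of the MOC counts. The high cells included MOC8, with 0 cholinergic and 4334 inhibitory reads, and MOC9, with 6 and 1331. Among libraries with at least 10 cholinergic reads the levels were 0.49 (LOC) and 46.8 CPM (MOC), with a difference of -2.84. The gene met the size rule in MOC in all 10 other alternatives and each time 1 of the 31 libraries was left out. Of the alternatives, summed counts and no filter on cells only loosen the rule and could not lose the call.

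Other members of the 3-O family differed less. Hs3st1, the enzyme known for antithrombin-binding sites, led the family per length in LOC (10.3 CPM per kb) and was second to Hs3st5 in MOC (6.87 against 10.9). Its level was 22.9 CPM (20.5 to 25.6) over LOC cells and 15.3 CPM (13.3 to 17.6) over MOC cells, while its mean log2 difference was -0.62. Its lowest, median and highest cells were at 0, 0.36 and 141 CPM in LOC and 0, 3.35 and 109 CPM in MOC, a wide overlap with several high cells in each group. Hs3st2, Hs3st3a1, Hs3st3b1, Hs3st4 and Hs3st6 ran from 1.26 to 8.42 CPM over LOC cells and from 0.44 to 6.38 CPM over MOC cells. Hs3st3a1 and Hs3st3b1 have nearly the same catalytic domain, and an exon of Hs3st3a1 overlaps F930015N05Rik on the other strand, so that their reads are uncertain. Of the 7 genes of the family, 6 had a difference below 0 on cell means, against 4 on summed counts or on medians over cells. Per length, Hs3st5 made up 0.56% of the family in LOC and 47.7% in MOC, and Hs3st1 59.0% and 30.0%. Hs3st5 was the leading family member in 4 of 13 MOC cells and in 0 of 18 LOC cells.

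**Figure D2:**
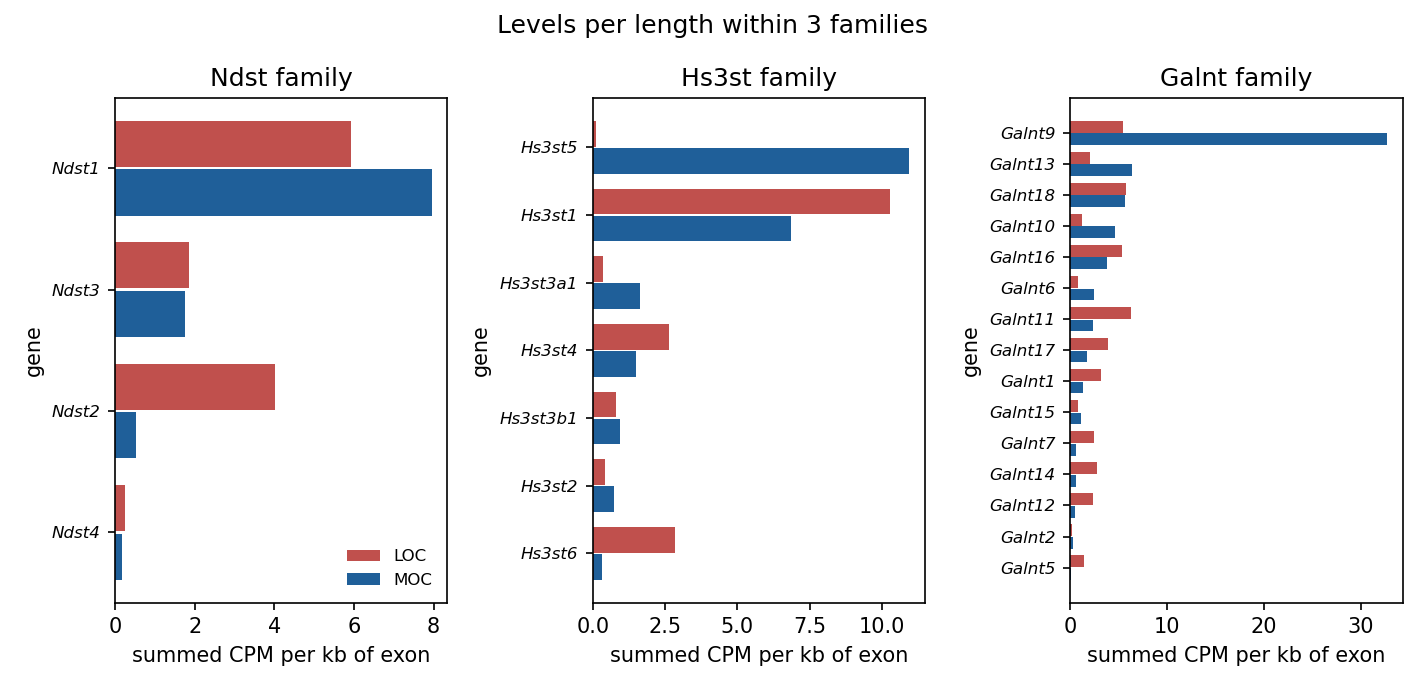
Summed CPM per kb of exon (horizontal axis) of each gene in 3 families, for LOC and MOC cells. Hs3st5 is the lowest of its family in LOC and the highest in MOC, and Galnt9 reaches 32.7 CPM per kb in MOC.

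The Chst enzymes of chondroitin and dermatan sulfate add sulfate to the galactosamine of those chains. None of the 7 measured genes (Chst3, Chst7, Chst11, Chst12, Chst13, Chst14 and Chst15) met the size rule. Chst12, a chondroitin 4-O-sulfotransferase, led the group per length in LOC (7.19 CPM per kb) but in MOC (1.99) came after Chst11 (3.75) and Chst14 (3.09). Its level was 16.97 CPM (14.9 to 19.3) for LOC against 4.69 CPM (3.61 to 5.99) for MOC. It was read in 8 of 18 LOC and 9 of 13 MOC cells. The lowest, median and highest cells were at 0, 0 and 101 CPM in LOC and 0, 1.06 and 32.0 CPM in MOC, so that its higher LOC sum came from a few cells and the difference on cell means was 0.34. Chst11, the other main chondroitin 4-O-sulfotransferase, had 19.2 and 20.8 CPM. Chst14, which sulfates dermatan, was at 5.40 CPM over LOC cells, with 93.5% of the counts in LOC8, and at 6.45 CPM over MOC cells. Without LOC8 its LOC level was 0.37 CPM and it met the size rule in MOC.

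Among the Chst enzymes of other glycans, Chst8 met the size rule in LOC. Chst8 encodes a transferase that puts sulfate on terminal N-acetylgalactosamine, known from the sugar chains of pituitary hormones. Its level was 69.5 CPM (65.2 to 74.0) over LOC cells against 20.5 CPM (18.1 to 23.0) over MOC cells, and it was read in 15 of 18 and 11 of 13 cells. The lowest, median and highest cells were at 0, 16.9 and 316 CPM in LOC and 0, 5.31 and 61.7 CPM in MOC. Of the LOC cells, 6 lay above the highest MOC cell and the others overlapped with MOC. The mean log2 values were 3.97 ± 2.88 (SD, n = 18) and 2.93 ± 1.96 (SD, n = 13), a difference of 1.04 that is close to the limit of the rule. It was under that limit in 13 of the 31 settings with 1 library left out (LOC3, LOC4, LOC5, LOC11, LOC12, LOC13, LOC15 or LOC17, and MOC3, MOC4, MOC5, MOC8 or MOC13), with a lowest value of 0.79 without LOC13. It was also under the limit with a pseudocount of 10 (0.83), without the 3 libraries highest in microglia markers (0.84), with the deposited table (0.96) and with TMM sizes (0.97). Within LOC cells Chst8 was lower where microglia markers were higher (Spearman rho -0.59 over 18 cells) and higher where cholinergic markers were higher (0.53). Within the 13 MOC cells the values were -0.006 and 0.21. Without MOC7, which held 58.1% of the MOC counts, the MOC level was 10.6 CPM and the difference 1.29. Among libraries with at least 10 cholinergic reads it was 1.28.

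Chst1, a keratan sulfate sulfotransferase, led these genes per length and was the first of all 45 in LOC. Its level was 39.3 CPM (36.2 to 42.7) over LOC cells and 31.8 CPM (28.8 to 34.9) over MOC cells. Its lowest, median and highest cells were at 0, 8.14 and 207 CPM in LOC and 0, 3.34 and 458 CPM in MOC, where the cell MOC13 held 73.4% of the counts. Chst10, which makes the HNK-1 epitope of neural adhesion proteins, was at 63.7 (LOC) and 62.8 CPM (MOC) but had a mean log2 difference of 1.37. MOC2 held 67.4% of its MOC counts, and without MOC2 the MOC level was 21.9 CPM and Chst10 met the size rule in LOC. Chst2, read in 27 of 31 cells, had 60.0 and 55.7 CPM. All 5 measured genes of this group had a difference above 0 on cell means, on summed counts and after thinning, but 4 of 5 in the libraries with at least 10 cholinergic reads and 4 of 6 in those low in oligodendrocyte markers. Chst9 held 0 counts in LOC, which allows up to 0.21 CPM, and 10 counts in 1 MOC cell.

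**Figure D3:**
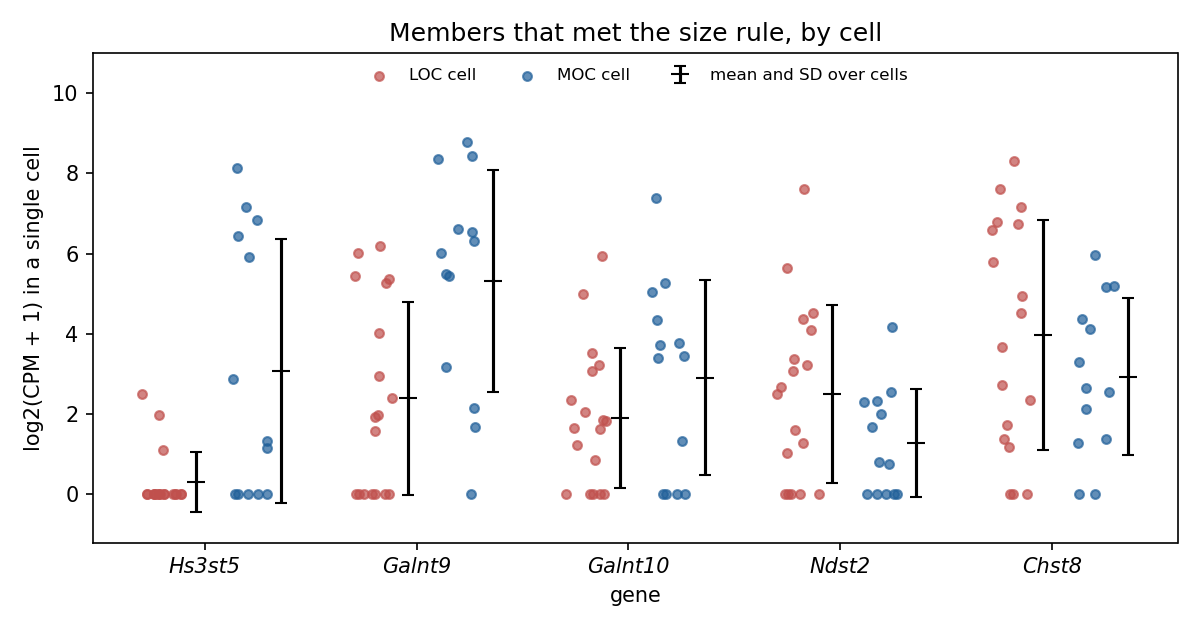
Level of each gene that met the size rule in every cell, as log2(CPM + 1), with LOC and MOC cells side by side. Galnt9 and Hs3st5 are high in part of the MOC cells, with 6 MOC cells above the highest LOC cell for each.

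Galnt9 (ENSMUSG00000033316, GRCm38 chromosome 5, 110544355 to 110621380, plus strand) had the widest difference of all 41 genes. No exon of it overlaps another gene. It was read in 11 of 18 LOC cells (61.1%, 35.7 to 82.7%) and 12 of 13 MOC cells (92.3%, 64.0 to 99.8%), and with 5 or more reads in 8 and 11. These intervals, as for Hs3st5, take cells as independent draws and do not cover the spread between animals. The lowest, median and highest cells were at 0, 2.87 and 72.2 CPM in LOC and at 0, 63.6 and 443 CPM in MOC. The highest MOC cells were MOC2, MOC5 with 343 CPM and MOC13 with 328 CPM, while MOC3 had no read, and 6 MOC cells lay above all LOC cells. The summed level was 16.2 CPM (14.2 to 18.4) for LOC against 98.3 CPM (93.1 to 103.7) for MOC, a ratio of 6.07. The mean log2 value was 2.40 ± 2.40 (SD, n = 18) and 5.31 ± 2.77 (SD, n = 13), a difference of -2.91.

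The difference of Galnt9 stayed between -3.35 and -2.62 when any 1 library was left out. In the other 10 alternatives it ran from -5.87 to -1.77, and the gene met the size rule in MOC in each. Here too, summed counts and no filter on cells could not lose the call. Among libraries with at least 10 cholinergic reads it was at 18.8 (LOC) and 109 CPM (MOC), with a difference of -2.61. Per length Galnt9 made up 12.3% of the family in LOC and 51.0% in MOC, where it ranked first of all 45 genes. It was the leading Galnt gene in 7 of 13 MOC and 3 of 18 LOC cells. Within LOC cells its level followed the number of genes detected (Spearman rho 0.80 over 18 cells that differ in RNA yield), and within MOC cells less so (0.20 over 13 cells). Such values were not particular to Galnt9. In LOC and MOC they were 0.61 and -0.12 for Hs3st5, 0.62 and 0.20 for Galnt10, 0.43 and 0.71 for Ndst2, and 0.03 and 0.48 for Chst8.

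Hs3st5 and Galnt9 were not high in the same MOC cells throughout. Both reached 50 CPM in MOC2, MOC5 and MOC9. Hs3st5 alone did so in MOC8 and MOC10, and Galnt9 alone in MOC1, MOC7, MOC11 and MOC13. In LOC, 0 of 18 cells had both at that level, and 2 cells, LOC1 and LOC10, had Galnt9 there. Of the MOC cells named, MOC8, MOC9 and MOC13 held 0, 6 and 1 cholinergic reads, under the limit of 10.

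Galnt10, a transferase that prefers peptides already carrying sugars, was the third member to meet the rule in MOC. Its level was 7.08 CPM (5.77 to 8.61) over LOC cells against 27.6 CPM (24.9 to 30.6) over MOC cells, with a difference of -1.01. The lowest, median and highest cells were at 0, 2.35 and 60.6 CPM in LOC and at 0, 9.90 and 168 CPM in MOC. MOC8 held 64.5% of the MOC counts, and without it the MOC level was 10.995 CPM, the difference -0.63, and the rule was not met. The call was also lost without any 1 of LOC2 to LOC5, LOC13 to LOC17, MOC2, MOC4, MOC6, MOC7, MOC9, MOC11 or MOC12 (differences of -0.99 to -0.81), and without LOC18 the ratio of MOC to LOC moved from 3.90 to 7.02. Among libraries with at least 10 cholinergic reads the levels were 7.87 and 8.28 CPM and the difference -0.12, and the call was lost too with a pseudocount of 10 (-0.57) and without the 3 libraries highest in microglia markers (-0.49). The part of MOC8's inhibitory and microglia transcripts in the Galnt10 result was not tested.

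The other Galnt genes differed in mean by less than 1. Galnt16 was the most widely read of all 45 genes, in 29 of 31 cells, with 42.8 and 30.5 CPM. Without MOC3 it met the size rule in LOC (42.8 against 20.8 CPM). Galnt13, known from neurons, was at 15.5 (LOC) and 49.6 CPM (MOC) with a mean difference of -0.62, and its highest MOC cells were MOC8 (172 CPM) and MOC9 (293 CPM). MOC8 and MOC9 held 249 and 291 of its 676 MOC counts, and had 0 and 6 cholinergic reads. Of the 14 measured Galnt genes, 7 had a difference above 0 and 7 below, and 8 and 6 on summed counts. Galnt5 was read in 4 LOC cells and 1 MOC cell, with 90 and 5 counts, and overlaps an exon of Ermn, an oligodendrocyte gene, on the opposite strand. Galnt2 shares 3854 bp of exon with the annotated gene Gm20388 on its own strand, so that its low level (0.70 and 1.32 CPM) is uncertain. Galnt6os had 8 and 1 counts and cannot be told apart from Galnt6 where they overlap. Galnt3 and Galnt4 are outside the normalized table, with 10 and 11 counts of Galnt3 and 7 and 2 of Galnt4 in LOC and MOC.

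**Figure D4:**
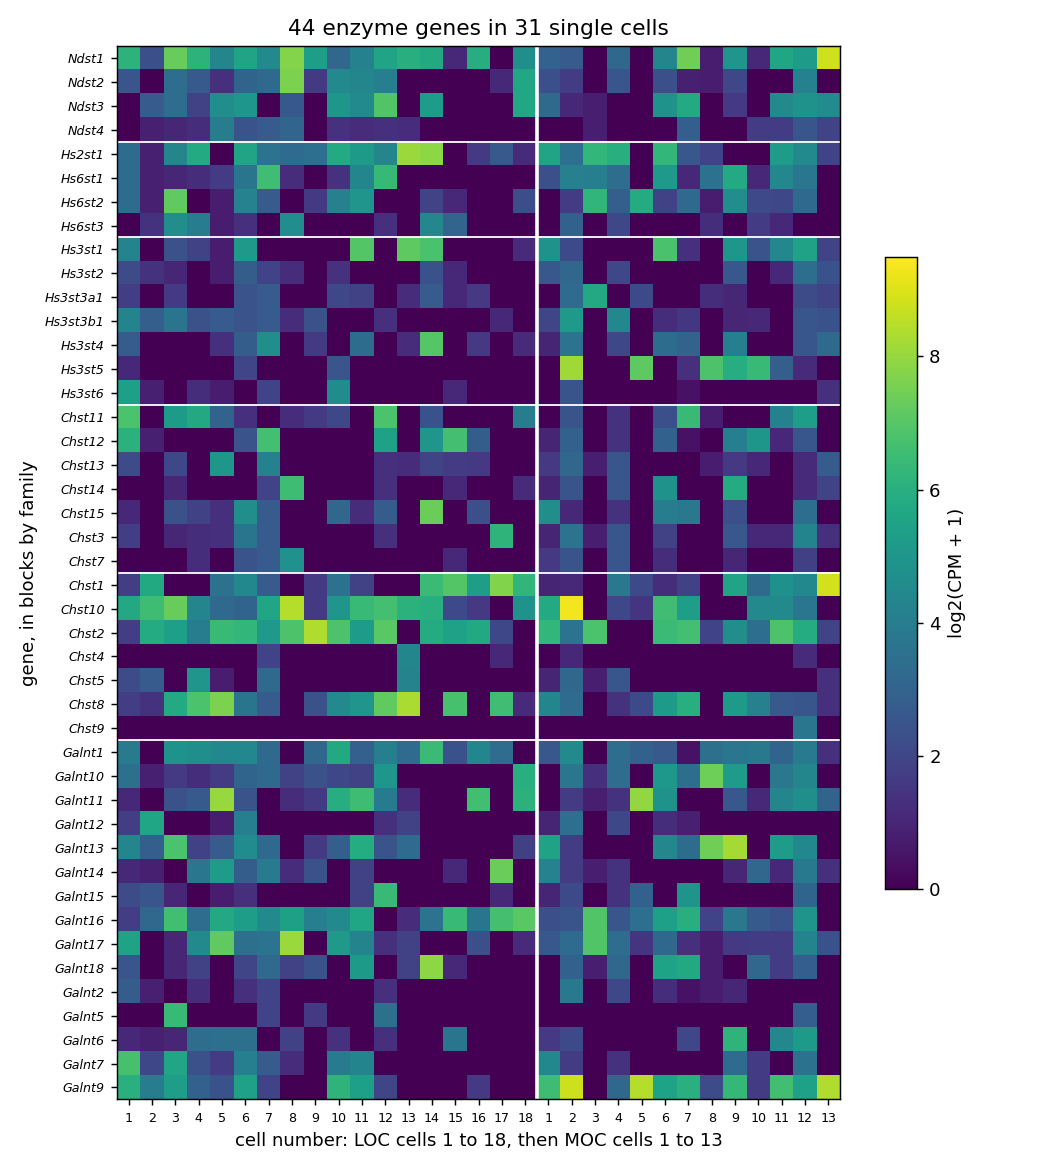
Level of the 44 enzyme genes (rows, in blocks by family) in the 31 cells (columns, LOC then MOC), as log2(CPM + 1). Most genes are read in part of the cells of both groups, and the Hs3st5 row is nearly empty over the 18 LOC cells.

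The number of enzyme genes with a read was alike in the groups, from 12 to 37 with a median of 26 in LOC cells and from 12 to 41 with a median of 29 in MOC cells. It followed the number of genes detected in a cell (Spearman rho 0.90 in LOC and 0.91 in MOC) and not the total count (-0.01 and -0.05). The enzyme genes are part of the genes detected, and no such value of other gene sets is given. These values are therefore not read as particular to the enzymes. All enzymes together took a median of 644 CPM per LOC cell (305 to 1362) and 633 CPM per MOC cell (230 to 1647). Of the 41, 8 were read in over 80% of all cells, led by Galnt16, Ndst1, Chst2 and Galnt1. The share of all measured genes read that widely is not given here.

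The other genes of these pathways were described from 11 lists holding 79 genes found in the files, 72 of them measured. The rule was met by 4 on the LOC side and 4 on the MOC side, 5.56% each, near the background of 6.07% and 5.67%. The linker that joins the chains to proteins had 3 of its 6 genes in MOC, namely B4galt7 (8.84 against 17.9 CPM), B3galt6 (8.56 against 43.6 CPM) and Fam20b (19.6 against 48.0 CPM). The first 2 add the galactoses of the linker and Fam20b is its xylose kinase. B4galt7 kept the call in 12 of 31 settings with 1 library left out (it lost it without any 1 of LOC1 to LOC9, LOC12 to LOC16, LOC18, MOC5, MOC9, MOC10 or MOC12). B3galt6 lost it without MOC3 or MOC13 and Fam20b without MOC2 or MOC5, and neither B4galt7 nor B3galt6 met the rule among libraries with at least 10 cholinergic reads. The polymerases of heparan sulfate (5 genes), its other editing enzymes (4) and the sulfate donor genes (7) had no gene past the rule.

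Chpf2, a chondroitin polymerizing factor, was higher in LOC, at 44.3 CPM (40.9 to 47.9) against 3.52 CPM (2.60 to 4.67), with a difference of 2.33. It kept the call in all 10 alternatives and all 31 settings with 1 library left out. Summed counts and no filter on cells, among the alternatives, could not lose a call. Its exons share 2466 bp with Smarcd3 on the opposite strand, and reads of the 2 genes cannot be told apart there. Of the proteins that carry heparan sulfate, Sdc2, a syndecan, had 56.0 and 15.3 CPM and Gpc6, a glypican, 19.2 and 2.57 CPM, both higher in LOC. Sdc2 lost the call without MOC3 or MOC13, and Gpc6 kept it in 6 of 10 alternatives and in 18 of 31 settings with 1 library left out (it lost it without any 1 of LOC1, LOC2, LOC9, LOC10, LOC12, LOC14, MOC1, MOC3, MOC8 to MOC11 or MOC13). St6galnac6, a sialyltransferase of O-linked and other chains, was at 27.8 CPM over LOC cells and 7.11 CPM over MOC cells. It lost the call in the subset low in oligodendrocyte markers, and its difference went down to 0.12 over the alternatives. Bgn, the chondroitin-bearing protein biglycan, had 3 counts in LOC (0.21 CPM, 0.04 to 0.61) and 54 in MOC (3.96 CPM, 2.97 to 5.17), and lost the call without MOC10 or MOC12, on medians over cells and in the subset low in oligodendrocyte markers. With a pseudocount of 10, Chpf2 kept the call and the other 7 of these 8 genes lost it.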

How the data were processed

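Smart-seq2 libraries of 18 LOC and 13 MOC neurons were compared by the cell type in the labels. The authors deposited raw read counts per gene, made from 75 bp read pairs. The submitters' processing notes name STAR 2.5.2, bcl2fastq, limma, edgeR and DESeq2, with mm10 and GRCm38 as builds. The sources used here do not give the counting tool or the annotation release. The deposited normalized signal table, in which each value is the count times 1 constant per column (column sums 721736 to 1737008), served to choose the genes and as an alternative scaling. The 19 added sequences (0.0173% of counts) were left out.

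CPM used the total over all mouse genes. Means were taken of log2(CPM + 1), which understates differences of low genes. A count of 0 was taken to allow 3 counts over the group. Smart-seq2 reads carry no molecular identifiers. Symbols, coordinates (counted from 1) and exon lengths came from GENCODE M21, which named 55154 of 55421 identifiers; promoter windows came from RefSeq (37 of 45 genes matched). TMM sizes came from edgeR 4.0.16 in R 4.3.3. The scripts were tested on simulated data.

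Values are given for genes that met the size rule, Hs3st5, Galnt9 and the leading gene per length of each family over both groups; other genes are named with values where 1 library changes their call or their role is described, chosen after their values were seen. The genes and lists were chosen with earlier results of these data known. Alternatives were summed counts, medians, a pseudocount of 10, TMM sizes, the deposited table, no filter on cells, thinning, 3 subsets of libraries and each library left out. Summed counts, which drop the mean difference, and no filter on cells only loosen the rule, so they could not lose a call.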

Additional observations from a re-analysis of the deposited data

How the results depend on the processing

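Of the results with alternatives, Hs3st5 and Galnt9 kept their direction and the size rule in every one run, with each library left out (-3.01 to -2.33 for Hs3st5, -3.35 to -2.62 for Galnt9) and in the 10 others (-6.82 to -1.33 and -5.87 to -1.77). For summed counts and no filter on cells this outcome was fixed, because they only loosen the rule. The counts of genes past the rule depended on the setting. Each count is followed by the share of all genes measured in that setting, except the counts with 1 library left out, for which no share is given. In LOC, 2 genes met the rule (6.07%), against 15 on summed counts without cell means (20.5%), 0 with a pseudocount of 10 (2.08%), 1 with TMM sizes (5.10%), with the deposited table (5.46%) or without the 3 libraries highest in microglia markers (7.45%), 4 with at least 10 cholinergic reads (8.47%), 12 with oligodendrocyte markers at most 2% of counts (13.8%, 4 cells per group) and 1 to 3 with 1 library left out. In MOC, 3 met it (5.67%), against 6 on summed counts (20.5%), 2 with a pseudocount of 10 (1.18%) or without the microglia-high libraries (5.12%), 11 in the oligodendrocyte subset (14.8%) and 2 to 4 with 1 library left out. The median difference of the genes was 0.125 (-0.04 to 0.24 with 1 library left out). On summed counts it was 0.466, where that of all genes was -0.04. In the oligodendrocyte subset it was -0.19, where that of all genes was -0.27. In that subset Ndst2 turned to -0.21 and Hs3st1 from -0.62 to 3.06. The cause of these changes was not tested, and the oligodendrocyte subset held only 4 cells per group. No paired analysis was possible because no test was run and cells of the groups share only a number. In a single cell 3 counts correspond to 1.14 to 8.42 CPM, the level that a count of 0 allows, and values below it rest on 1 or 2 reads.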
